A study of Mus musculus with 4 samples.

Results

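The MHC class II genes examined here are 10 mouse genes, chosen by symbol: H2-Aa, H2-Ab1, H2-Eb1, Cd74, H2-DMa, H2-DMb1, H2-DMb2, H2-Oa, H2-Ob and Ciita. All 10 were found among the 31053 features of the count tables, leaving aside an added tdTomato sequence. They were followed in single-cell RNA sequencing of kidneys of male C57BL/6 mice that received BPTES, named in the series title as an inhibitor of GLS1 (glutaminase), or its vehicle DMSO for 1 month from the age of 19 months. Each group had 2 libraries, made with 3′ chemistry from 20000 CD45-negative and 9000 CD45-positive sorted cells of 1 tissue. No untreated or young kidney was analysed here, all mice were of the same sex and strain, and the labels do not say whether a library came from 1 animal or from a pool. The p-values therefore measure only the spread between 2 libraries in each group, which may be technical.

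MHC class II molecules present peptides taken up from outside the cell to CD4 T cells. H2-Aa and H2-Ab1 encode the α and β chains of I-A, and H2-Eb1 encodes the β chain of I-E, whose α chain is not made in C57BL/6 mice because the H2-Ea gene is defective. Cd74 encodes the invariant chain, which fills the groove until the molecule reaches the endosome. H2-DMa with H2-DMb1 or H2-DMb2 forms the editor that exchanges the invariant chain fragment for peptide, and H2-Oa and H2-Ob form its inhibitor, best known from B cells. Ciita encodes the transactivator that switches the whole family on. Dendritic cells, macrophages and B cells are the classical expressing cells, mouse T cells are not known to express the family, and endothelium and injured or interferon-stimulated tubule epithelium can acquire it.

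In the annotation of the mm10 build, 8 of the 10 genes lie on chromosome 17 between positions 34092340 (start of H2-Oa) and 34316674 (end of H2-Eb1). Ciita acts through a complex bound at short promoter boxes, called X and Y, that members of the family share. These promoters are shown because several members carry the boxes. RefSeq promoters (GRCm38.p6) were at hand for 7 of the 10 members. The stretches below run 5′ to 3′ on the gene's own strand and end shortly before the transcription start. Capitals mark the X-like word (AAC, any pair of bases, ATGATG), which the H2-Aa stretch lacks, and the Y-like word (GATTGG). Both words were chosen after these sequences had been seen.
H2-Eb1, chr17:34305762-34305822, plus strand: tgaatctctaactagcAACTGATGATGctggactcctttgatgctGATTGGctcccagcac
H2-DMb2, chr17:34145113-34145173, plus strand: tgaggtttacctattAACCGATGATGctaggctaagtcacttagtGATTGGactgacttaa
H2-Ob, chr17:34238802-34238862, plus strand: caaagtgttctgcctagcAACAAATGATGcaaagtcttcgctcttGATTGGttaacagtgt
H2-Aa, chr17:34287857-34287917, minus strand: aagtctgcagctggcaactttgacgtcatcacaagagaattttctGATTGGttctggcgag

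Searched on both strands over the 250 bases before the start, GATTGG was found in 14.6% of 32851 promoters and the X-like word in 0.119% of them. Only 10 promoters (0.0304%) held both words, and 4 of those 10 belong to H2-Eb1, H2-DMb1, H2-DMb2 and H2-Ob. In the promoters of H2-Aa and H2-Oa, and in 1 of the 2 windows of H2-DMa, GATTGG was found without the X-like word. A match is a description of these letters and not a measured binding site.

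The libraries held 17907 to 20091 barcodes and 249881074 to 297947661 UMIs. After removal of barcodes over 50% mitochondrial UMIs (25273 of 76278, 33.1%) and of 3867 called doublets, 46738 cells remained, with a median of 12825 to 14817 UMIs per library. Any pair of libraries shared 31 to 43 barcodes, at most 0.366% of a library. Clustering left the 10 genes out, so that their levels could be compared between clusters. The 60 clusters were named from marker lists into 20 classes, each name meaning "like" that type, and 11 clusters with 5601 cells (12.0%) stayed unnamed. The named classes included 24013 tubule cells, 2842 endothelial cells and 14036 leukocytes.

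Levels are given as CPM (counts per 1000000), the UMIs of a gene per 1000000 UMIs of the class in a library. The summed level of H2-Aa, H2-Ab1, H2-Eb1 and Cd74, called the core genes here, spanned more than 2 orders of magnitude across classes. Type 2 dendritic cells stood highest (54609 CPM ± 1375, SD, n = 4 libraries), followed by macrophages (51211 CPM ± 1673) and type 1 dendritic cells (45784 CPM ± 1256). B cells came next with 23818 CPM ± 5685, then plasmacytoid dendritic cells, monocytes and plasma cells with means of 15929, 15427 and 9936 CPM. Neutrophils were at 1732 CPM ± 972, but without a cluster that also carried Ace they were at 435 CPM ± 314 (258 and 186 under BPTES, 414 and 885 under DMSO). Next were injured proximal tubule (896 CPM ± 333) and endothelium (829 CPM ± 103), whose order turned between the groups: injured proximal tubule was at 592 and 625 CPM and endothelium at 955 and 738 CPM under BPTES, against 1147 and 1220 CPM and 871 and 751 CPM under DMSO. Natural killer cells, innate lymphoid cells and T cells followed at 457, 372 and 368 CPM, again within their spread. The other tubule segments and fibroblasts closed the order between 256 and 103 CPM, and proximal tubule was at 150 CPM ± 49.5. Leaving mitochondrial UMIs out of the total kept the order of all 20 classes. Plasmacytoid dendritic cells rested on 2 to 37 cells per library and were not tested.

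**Figure D1:**
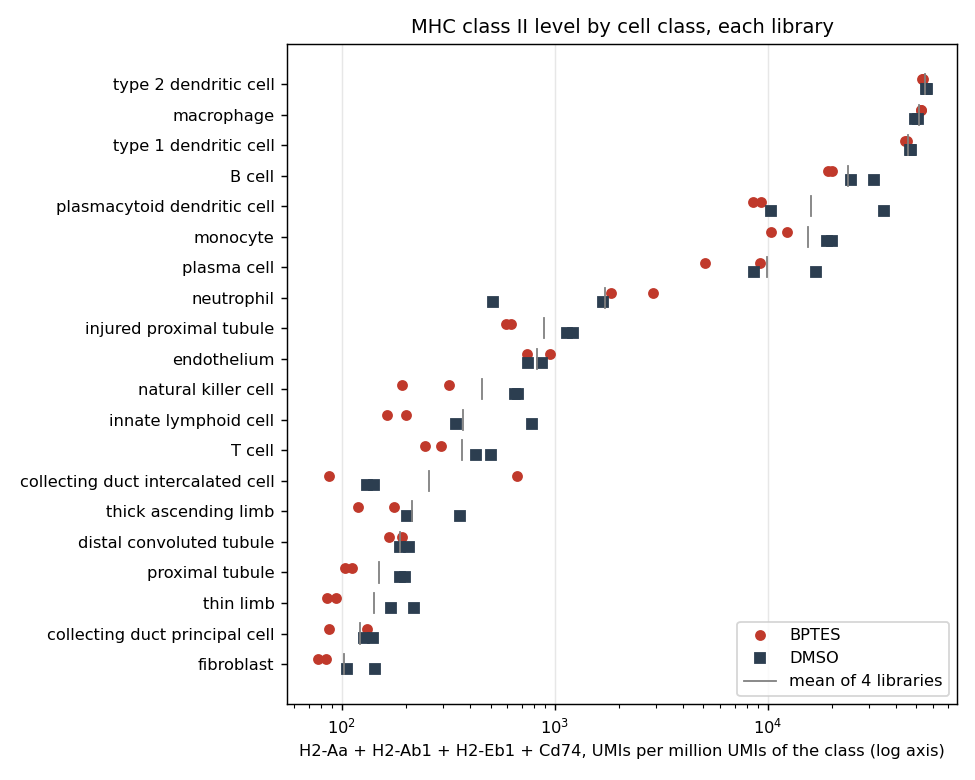
Summed CPM of H2-Aa, H2-Ab1, H2-Eb1 and Cd74 in each class (x axis, log scale), 1 point per library, circles BPTES and squares DMSO, grey dash the mean of 4 libraries. Both conventional dendritic cell classes and macrophages lie between 44268 and 56061 CPM in every library, while proximal tubule lies between 104 and 198 CPM.

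Ciita followed nearly the same order. It was highest in type 1 dendritic cells (491 CPM ± 39.2), then type 2 dendritic cells (409 CPM ± 35.0), macrophages (308 CPM ± 62.9) and B cells (282 CPM ± 34.2), the last of which overlap. Endothelium held 10.7 CPM ± 2.84 and injured proximal tubule 9.99 CPM ± 3.02, against 3.84 CPM ± 1.48 in T cells and 1.94 CPM ± 0.855 in proximal tubule. The members with a narrower range in B cells and dendritic cells were the second DM β chain and the DO chains. H2-DMb2 was at 479 to 560 CPM in B cells and 249 to 347 CPM in type 2 dendritic cells, and at 10.2 to 13.4 CPM in macrophages. H2-Ob was at 290 to 416 CPM in B cells and 15.2 to 27.0 CPM in macrophages. H2-Oa was at 154 to 200 CPM in B cells, 162 to 203 CPM in type 2 dendritic cells and 166 to 172 CPM in type 1 dendritic cells, and it reached 44.5 to 62.3 CPM in innate lymphoid cells, where H2-Ob had 0 UMIs in 3 of 4 libraries. In those 3 libraries a count of 0 allows up to 3 UMIs.

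Droplets also capture RNA released by other cells, so low counts in tubule cells do not by themselves show expression. Each gene's level in a class was therefore set beside its level in the leukocyte sum and beside the same ratio for 28 genes of leukocytes (such as Ptprc, Laptm5, Tyrobp, Lyz2 and C1qa). Over all 4 libraries the leukocyte genes stood in proximal tubule at a median of 0.435% of their leukocyte level, lowest 0.270%. The highest were Plac8 (5.20%) and Cst3 (4.29%), and tubule cells are themselves known to express Cst3. H2-Aa (0.491%), H2-Eb1 (0.482%) and Cd74 (0.450%) were close to that median. H2-Ab1 (0.756%) was above 25 of the 28 genes, and H2-DMa (1.14%), Ciita (0.917%) and H2-DMb1 (3.69%) were above 26. In distal convoluted tubule the median of the leukocyte genes was 0.743%, and H2-Aa (0.748%), H2-Ab1 (0.741%), H2-Eb1 (0.761%) and Cd74 (0.580%) stood around or below it.

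Endothelium and injured proximal tubule differed from that picture. In endothelium the leukocyte genes had a median of 0.617%, and H2-Aa (2.67%), H2-Ab1 (4.08%), Cd74 (3.12%), Ciita (5.22%) and H2-DMb1 (16.1%) each exceeded at least 25 of the 28. Plac8 was exceptional there at 88.1% of its leukocyte level. In injured proximal tubule the median was 0.536%, with H2-Ab1 at 4.16%, Cd74 at 3.68%, H2-DMb1 at 17.4% and H2-DMb2 at 32.5%. These are means over the libraries, and the BPTES libraries held only 21 and 25 such cells, with 273 and 315 core UMIs. The UMIs of H2-DMb2 amounted there to 6.59% and 2.22% of the core UMIs.

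**Figure D2:**
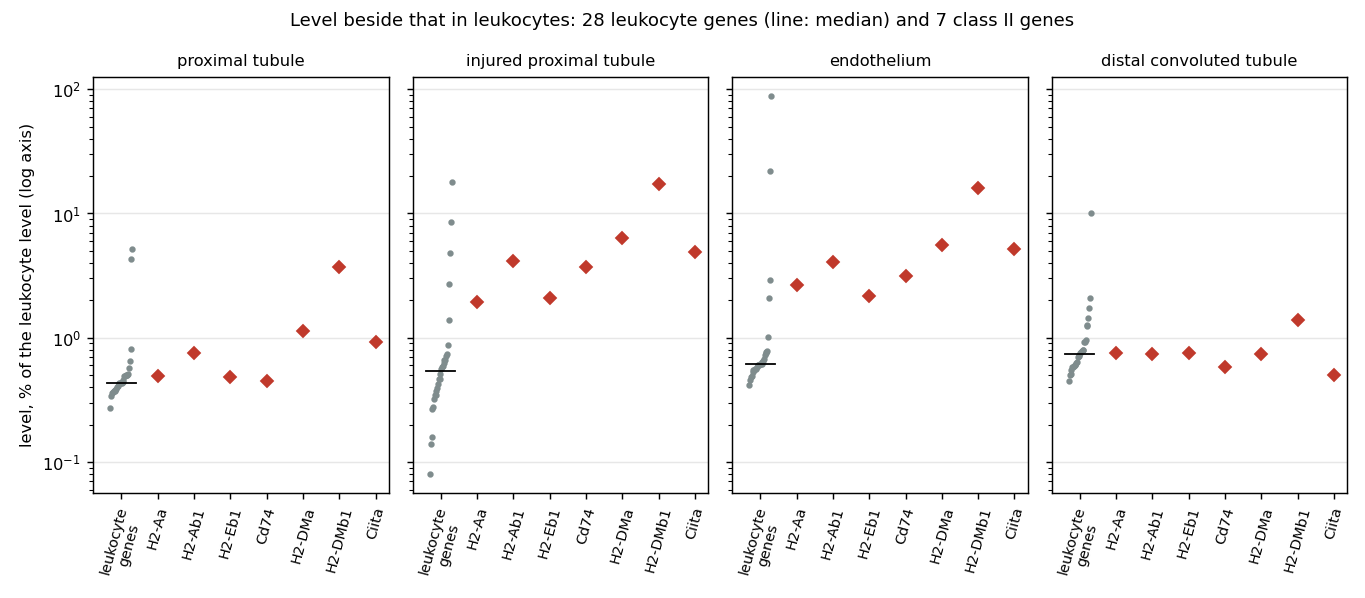
Level of each gene in 4 classes as a percentage of its level in the leukocyte sum (y axis, log scale, mean of 4 libraries). Grey points are leukocyte genes above 0 with their median as a black line, and red diamonds are 7 class II genes. The class II genes lie far above the median in endothelium and injured proximal tubule, and H2-Aa, H2-Eb1 and Cd74 lie near it in proximal tubule and distal convoluted tubule.

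The share of cells with a core UMI gave a second view. With every cell thinned to 1000 UMIs, 12.4% and 11.4% of proximal tubule cells of the BPTES libraries held a core UMI, and 18.3% and 18.3% of the DMSO libraries (unthinned, 83.5% and 76.4% against 91.1% and 91.7%). In T cells the thinned shares were 22.1% and 21.1% under BPTES and 27.7% and 29.6% under DMSO (unthinned, 82.1% and 76.7% against 91.3% and 94.1%). The median depth was 15667 to 18994 UMIs in proximal tubule and 10784 to 11921 UMIs in T cells, and 20 to 41 proximal tubule and 3 to 12 T cells per library were too shallow to thin. The thinned proximal tubule share thus lay below that of a cell type that should lack the genes, while the unthinned shares were closer. The classes differ in depth, and 3.26% to 12.0% of the T cells of a library held at least 10 core UMIs. The shares therefore cannot decide whether proximal tubule cells expressed the genes. Whether the counts came from released RNA was not tested. In endothelium the thinned share was 46.7% and 35.6% under BPTES and 41.0% and 44.3% under DMSO, above the T cell share in each library. Macrophages lay between 99.7% and 100%.

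Ratios between members did not stay the same across classes. Because 3′ ends of different genes can be captured unequally, a ratio is compared here between classes and not read as an amount. H2-Ab1 to H2-Aa was 0.852 in the leukocyte sum, 0.839 in macrophages, 0.863 and 0.947 in type 2 and type 1 dendritic cells, 0.743 in B cells and 0.909 in T cells. In proximal tubule the same ratio was 1.24 and 1.16 under BPTES and 1.40 and 1.41 under DMSO. In endothelium it was 1.37 and 1.32 under BPTES and 1.23 and 1.23 under DMSO, and in injured proximal tubule 1.56 to 2.19. In distal convoluted tubule it was 0.679 to 0.929. H2-DMb1 to H2-DMa was 0.940 in the leukocyte sum, 2.32 to 4.41 in proximal tubule, 2.39 to 2.96 in endothelium and 0.199 to 0.247 in T cells. In both ratios the libraries of proximal tubule and of endothelium all lay above those of macrophages, both dendritic cell classes and B cells. H2-DMb2 to H2-DMb1 was 2.13 in B cells (3.62 without a cluster that also carried macrophage genes), 0.463 in type 2 dendritic cells and 0.0221 in macrophages. The last 500 bases of H2-DMb1 and H2-DMb2 share 4 of 470 words of 31 bases.

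**Figure D3:**
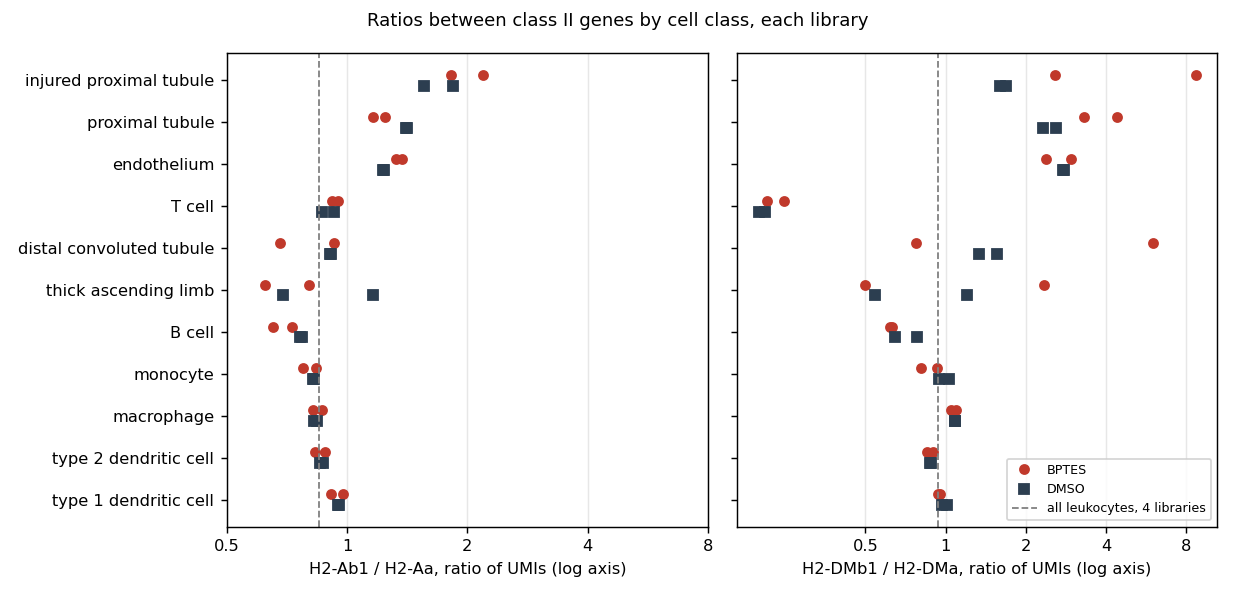
Ratio of UMIs of H2-Ab1 to H2-Aa (left) and of H2-DMb1 to H2-DMa (right) in 11 classes, both axes log, 1 point per library, circles BPTES and squares DMSO. The dashed line is the ratio in the leukocyte sum, 0.852 and 0.940, and every proximal tubule and endothelial library lies to the right of it.

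The first comparison asked whether class II transcripts in tubule cells differ between BPTES and DMSO. In proximal tubule, 5 of the 10 members were lower under BPTES past an adjusted p of 0.05 (edgeR's quasi-likelihood test, Benjamini-Hochberg over 15964 genes), where 0.351% of all genes were called lower. Cd74, the invariant chain, was at 37.4 and 37.6 CPM in the BPTES libraries and 67.7 and 69.6 CPM in the DMSO libraries, a log2 change of -0.79 ± 0.09 (SE) with an adjusted p of 0.0267. H2-Ab1 was at 29.6 and 25.8 against 50.5 and 55.5 CPM (log2 -0.86 ± 0.10, adjusted p = 0.0267 by edgeR). For these 2 genes every DMSO library exceeded every BPTES library. H2-Aa was at 23.8 and 22.2 against 36.1 and 39.3 CPM (log2 -0.63 ± 0.09, adjusted p = 0.0397 by edgeR). H2-Eb1 was at 21.0 and 18.2 against 33.6 and 33.6 CPM (log2 -0.69 ± 0.09, adjusted p = 0.0346 by edgeR). H2-DMa was at 3.20 and 2.84 against 5.50 and 6.09 CPM (log2 -0.86 ± 0.14, adjusted p = 0.0474 by edgeR). The groups did not overlap for these 3 genes either. With 2 libraries against 2, groups fall apart in 0.333 of random splits, and the share of all genes that did so was not counted. The call of H2-DMa was lost with RLE scaling (adjusted p = 0.0525 by edgeR) and with cells over 25% mitochondrial UMIs left out (0.0585).

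Among the other members in proximal tubule, Ciita was at 1.19 and 1.27 CPM under BPTES and 2.96 and 2.32 CPM under DMSO, with a log2 change of -1.01 ± 0.19 that missed the threshold (adjusted p = 0.0665 by edgeR). Ciita was called by DESeq2 (adjusted p = 0.00350, with 2.15% of all genes called lower) and by edgeR without the count filter (1.19e-05, with 3.63%). With 1 library left out its log2 change was -1.16 to -0.86. H2-DMb2 likewise missed it (log2 -1.29 ± 0.22, adjusted p = 0.0542 by edgeR), at 48 to 74 UMIs under BPTES and 148 to 154 under DMSO. H2-DMb1, the member that stood out in the ratio to leukocytes, was at 10.6 and 12.5 against 12.7 and 15.8 CPM (log2 -0.22 ± 0.16, adjusted p = 0.450 by edgeR). H2-Oa and H2-Ob had at most 55 UMIs in a library, and their log2 changes were -0.10 ± 0.38 and 0.43 ± 0.31. Over the 10 members, all of which passed the low-count filter, the median log2 change was -0.74, and over all genes tested it was -0.01.

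**Figure D4:**
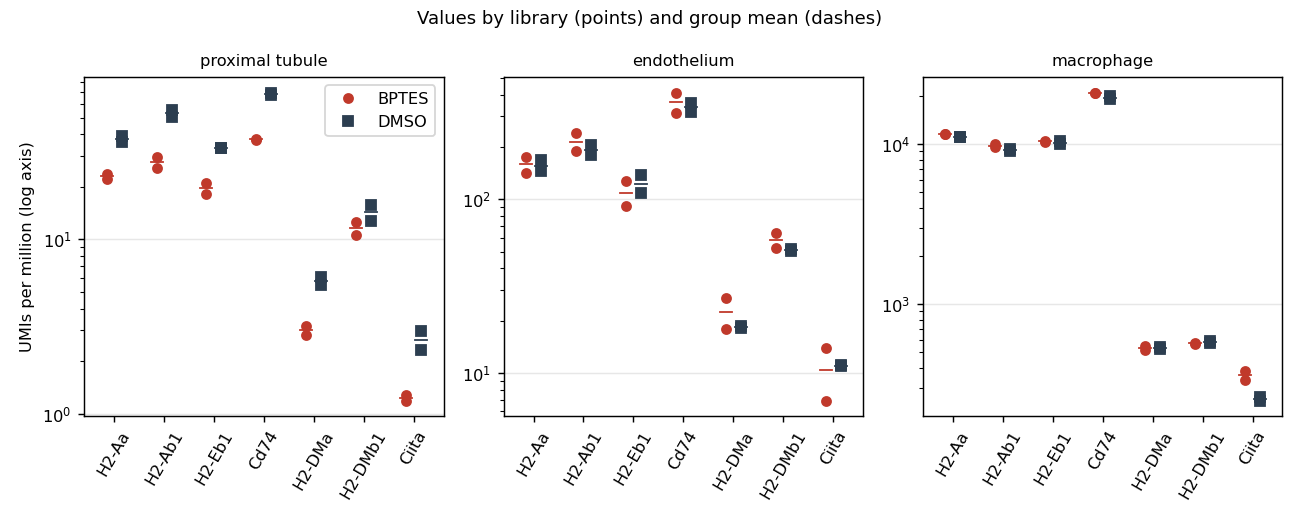
CPM (y axis, log scale) of 7 class II genes in proximal tubule, endothelium and macrophages, 1 point per library, circles BPTES and squares DMSO, dashes the group means (n = 2). In proximal tubule the BPTES means lie below the DMSO means for the 7 genes shown. In macrophages Ciita lies higher under BPTES (335 and 384 against 263 and 249.7 CPM).

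The calls in proximal tubule depended on single libraries and on the treatment of doublets. Leaving out the second BPTES library ended every call among the 10 members, in a fit where far fewer of all genes were called. Cd74 was at log2 -0.73 to -0.84 over the 4 fits that left out 1 library. With the called doublets kept and the cells clustered anew, none was called and Cd74 changed by -0.17. The core level of the class was then 486 and 455 CPM under BPTES and 481 and 636 CPM under DMSO. In that clustering 227 to 271 called doublets per library, at 2989 to 5493 core CPM, fell into proximal tubule. Cells that were macrophages in the clustering without doublets fell there too: 7 and 12 cells of 1 macrophage cluster under BPTES, and 4 and 3 under DMSO, at 35819 to 47328 core CPM. Among the cells of that class not called doublets, the core level was 197 and 229 CPM under BPTES and 221 and 249.6 CPM under DMSO, and the share of cells with a core UMI at 1000 UMIs was 12.4% and 11.6% against 18.6% and 18.6%.

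Some genes of leukocytes moved in proximal tubule too. C1qa, C1qb and C1qc, the macrophage complement genes, were called lower there (log2 -1.03 ± 0.14, -0.84 ± 0.12 and -0.98 ± 0.14, adjusted p = 0.0346 by edgeR for each), 3 of the 28 leukocyte genes. They were also called lower in the leukocyte sum (log2 -0.92 ± 0.12, -0.83 ± 0.09 and -0.92 ± 0.12, adjusted p = 0.0316, 0.0231 and 0.0326 by edgeR, background 4.38%). In macrophages C1qa was called lower (log2 -0.45 ± 0.08, adjusted p = 0.0421 by edgeR), and C1qb and C1qc were at -0.35 and -0.45 without a call. In proximal tubule Ptprc, which encodes CD45, was at 5.01 and 5.44 CPM under BPTES and 4.97 and 5.84 CPM under DMSO. The 27 leukocyte genes without Cst3 summed to 85.2 and 78.4 CPM under BPTES and 116 and 119 CPM under DMSO, a log2 difference of the means of -0.52, against -0.84 for the core genes. The part of these leukocyte transcripts in the class II result was not tested by a fit that removes them. In the proximal tubule cells without a UMI of 7 leukocyte genes (Ptprc, Laptm5, Coro1a, Tyrobp, Fcer1g, Cd52 and Cd53; 48.5% to 64.1% of cells), the same 5 members were called. There Cd74 was at 41.5 and 35.9 against 69.8 and 71.5 CPM (log2 -0.80 ± 0.09, adjusted p = 0.00698 by edgeR), beside a background of 1.51% of genes called lower, and C1qa remained in those cells at 3.81 and 3.24 against 7.96 and 9.69 CPM. Of 19 leukocyte genes tested in those cells, 3 were called lower and 1 higher, the last being the B cell gene Cd79a (log2 1.54 ± 0.34, adjusted p = 0.0395 by edgeR). Cd79a was also called higher in the leukocyte sum (log2 1.02 ± 0.16, adjusted p = 0.0440 by edgeR), where 554 of 17082 genes were called higher.

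The top 1% of proximal tubule cells by core UMIs held 11.1% and 14.6% of the core UMIs under BPTES and 12.3% and 16.2% under DMSO. Cells with at least 10 core UMIs numbered 77 and 56 (1.41% and 1.08%) under BPTES and 297 and 320 (5.67% and 7.04%) under DMSO. Of the cells with at least 10 core UMIs, 55.4% to 65.7% held a UMI of the 7 leukocyte genes, and of the cells with none 31.5% to 39.1% did, at median depths of 27321 to 35855 and 9176 to 11622 UMIs.

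Injured proximal tubule cells, named from Havcr1, Krt20, Vcam1 and related markers, numbered 21 and 25 under BPTES and 139 and 181 under DMSO, too few under BPTES for a test. Their core level was 592 and 625 CPM under BPTES and 1147 and 1220 CPM under DMSO, and the leukocyte genes without Cst3 summed to 102 and 119 against 249 and 265 CPM. Cd74 was at 258 and 320 against 554 and 616 CPM. A small proximal tubule cluster of 31 cells led by the interferon-induced gene Ifit3 had 449 core CPM. Summed over all tubule cells, the core level was 116 and 116 CPM under BPTES and 212 and 260 CPM under DMSO, but edgeR called 0 of 17416 genes in that sum (0%), although 2606 had an unadjusted p under 0.05; by DESeq2, 7 of the 10 members were called lower, beside 2.05% of all genes. Cd74 had a log2 change of -1.04 with an adjusted p of 0.184 in edgeR's test. This sum contains the injured cells, whose number differed between the groups, and their part in its difference was not tested. In the tubule cells with none of the 7 leukocyte genes, 4 members were called lower (background 0.172%): H2-Aa, H2-Ab1, H2-Eb1 and Cd74.

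Other tubule segments gave no call among the members tested. In collecting duct principal cells 5 members passed the count filter (log2 -0.52 to 0.13, background 0.0903%) and in intercalated cells 5 (log2 -0.23 to 1.60, background 0.165%). In intercalated cells the second BPTES library held 1080 core UMIs, against 171, 241 and 389 in the others. In distal convoluted tubule 5 members passed (background 0.0674%), and their log2 changes lay between -0.12 and 0.13; the core level was 192 and 167 CPM under BPTES and 208 and 188 CPM under DMSO. In thick ascending limb 4 members passed (background 0.169%), with log2 changes of -0.84 to -0.64 and adjusted p of 0.329 to 0.822 by edgeR. The 6 cells with at least 10 core UMIs of the second DMSO library contributed there, and the top 1% of its cells held 58.1% of its core UMIs.

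In endothelium, where class II levels stood above the leukocyte genes, no member was called (background 0.431% of 12994 genes in either direction; DESeq2 also called 0 members, with 0.793% of all genes, and no member had an unadjusted p under 0.05). Cd74 was at 412 and 315 CPM under BPTES and 358 and 319 CPM under DMSO, and its log2 change was 0.12 ± 0.12. H2-Ab1 was at 241 and 189 against 207 and 179 CPM (log2 0.17 ± 0.12), and H2-DMb1 at 64.2 and 52.6 against 50.4 and 51.6 CPM (log2 0.22 ± 0.10). H2-Aa, H2-Eb1, H2-DMa and H2-Ob were at log2 0.04, -0.15, 0.32 and 0.35 and Ciita at -0.00499 ± 0.27, all with overlapping groups, and H2-DMb2 and H2-Oa did not pass the count filter. In the endothelial cells with none of the 7 leukocyte genes no member was called either (background 0.336%), with log2 changes of 0.04 to 0.43. The 27 leukocyte genes without Cst3 summed to 316 and 289 CPM under BPTES and 462 and 498 CPM under DMSO in the same class. Plac8 alone gave 1821 of 2878, 852 of 1462, 2439 of 3893 and 4128 of 6303 of these UMIs, in BPTES 1 and 2 and DMSO 1 and 2, and it was the 1 of 19 leukocyte genes tested that was called (log2 -0.73 ± 0.10, adjusted p = 0.0232 by edgeR). Within the endothelium, the Plvap-led cluster held 895 core CPM and a Plat-led cluster 137 core CPM.

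Over all leukocytes, 8 of the 10 members were lower under BPTES, where 4.38% of 17082 genes were called lower. Cd74 was at 10122 and 9476 CPM under BPTES and 13014 and 13591 CPM under DMSO (log2 -0.36 ± 0.06, adjusted p = 0.0366 by edgeR). H2-DMb2 had the largest change, at 72.1 and 60.9 against 118 and 122 CPM (log2 -0.77 ± 0.07, adjusted p = 0.0190 by edgeR). H2-Aa, H2-Ab1, H2-Eb1, H2-DMa, H2-DMb1 and H2-Oa fell by 0.43, 0.43, 0.47, 0.44, 0.46 and 0.37 on the log2 scale. Ciita (log2 -0.17 ± 0.05, adjusted p = 0.0915 by edgeR) and H2-Ob (0.01 ± 0.05) were not called. With doublets kept, H2-Aa, H2-Ab1, Cd74 and H2-Oa were no longer called. With the replicate number as a block none of the 8 was called, beside 102 of 17082 genes called lower, though the labels do not say that numbers pair libraries. Leaving out either BPTES library ended the 8 calls, in fits where far fewer of all genes were called. Over the fits that left out 1 library, H2-Aa changed by -0.49 to -0.37 and Cd74 by -0.40 to -0.32.

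This sum joins classes whose shares differed between the groups, and the part of that makeup in the calls was not tested. Dendritic cells held 17.0% and 17.5% of leukocyte UMIs under BPTES and 28.2% and 28.1% under DMSO, and 34.9% and 38.9% against 47.3% and 44.4% of the core UMIs. Plasma cells held 16.1% and 15.3% of leukocyte UMIs under BPTES and 1.72% and 3.66% under DMSO. Without plasma cells 7 members were called (background 4.2% lower), and Cd74 changed by -0.33 ± 0.07 (adjusted p = 0.0473 by edgeR).

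In macrophages and dendritic cells no core gene was called. In macrophages none of the other members was called either (background 1.81%). Cd74 was at 20865 and 20968 CPM under BPTES and 19994 and 19003 CPM under DMSO (log2 0.09 ± 0.07), and H2-Aa at 11470 and 11579 against 11014 and 11008 CPM (log2 0.06 ± 0.07). Ciita was at 335 and 384 against 263 and 249.7 CPM, a log2 change of 0.48 ± 0.10 that missed the threshold (adjusted p = 0.0688 by edgeR). DESeq2 called 1 member higher in macrophages, beside 1.56% of all genes. H2-Oa and H2-Ob were at 20.5 and 18.8 against 14.8 and 7.96 CPM and at 27.0 and 26.3 against 20.6 and 15.2 CPM, and neither was called.

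**Figure D5:**
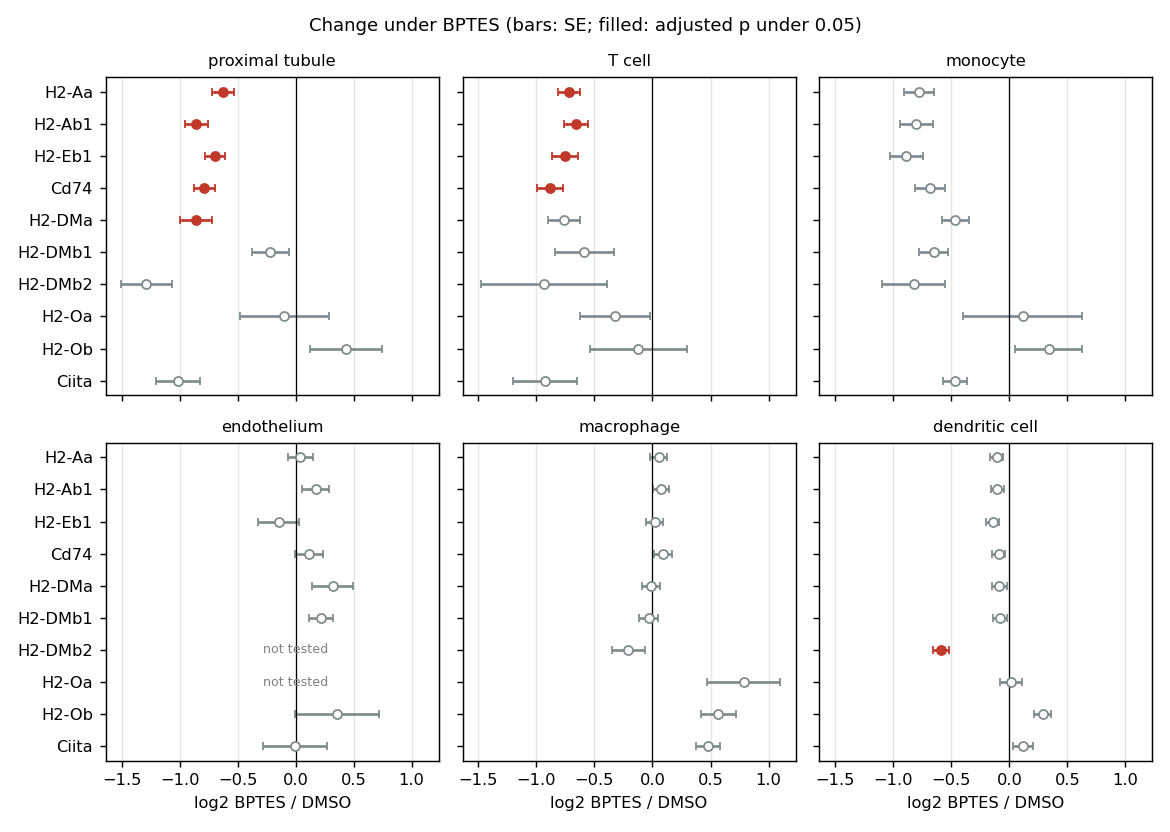
Log2 change of each member, BPTES over DMSO (x axis), in 6 classes, points with SE bars, filled where edgeR's adjusted p was under 0.05. The core genes lie left of 0 in proximal tubule, T cells and monocytes and close to 0 in endothelium, macrophages and dendritic cells.

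The dendritic cell class joins type 1 and type 2 cells, whose mix differed between the groups. Type 1 cells held 6.16% and 6.80% of leukocyte UMIs under BPTES and 4.46% and 7.46% under DMSO, and type 2 cells 10.9% and 10.7% against 23.7% and 20.7%. In the joint class only H2-DMb2, whose level is higher in type 2 cells, was called (background 2.5% lower). It was at 208 and 187 CPM under BPTES and 303 and 287 CPM under DMSO (log2 -0.59 ± 0.07, adjusted p = 0.0153 by edgeR). Leaving out either BPTES library ended the call, in fits where far fewer of all genes were called. Cd74 was at 20191 and 20544 against 21753 and 21533 CPM (log2 -0.09 ± 0.06). H2-Aa, H2-Ab1 and H2-Eb1 changed by -0.11, -0.10 and -0.14, and the adjusted p of the 4 core genes lay between 0.166 and 0.357 in edgeR's test. Within type 2 dendritic cells H2-DMb2 was at 271 and 249 against 343 and 347 CPM (log2 -0.42 ± 0.07, adjusted p = 0.0466 by edgeR, background 0.766% lower). The call was lost without either BPTES library, and at clustering resolution 2 the log2 change was 0.05. That value is for fewer cells: the type 2 name there covers a Mmp12-led cluster of 487 cells, against 1260 cells before, while a Cd209a-led cluster of 687 cells took the name of mature dendritic cells. In type 1 dendritic cells it was at 95.6 and 90.8 against 93.6 and 124 CPM, with overlapping groups, and no gene of that class was called (0 of 10865, with 1436 at an unadjusted p under 0.05).

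B cells gave no call (background 0.448%). Cd74 was at 10061 and 10120 against 11576 and 13889 CPM. The class includes a cluster that also carries C1qa, and without it Cd74 was at 9609 and 9778 against 10009 and 10194 CPM (log2 -0.04 ± 0.13), again with no member called (background 0.00986%). Monocytes had log2 changes of -0.68 to -0.89 for the 4 core genes, with adjusted p of 0.0508 to 0.0670 by edgeR and none called (background 0.834%). The calls in this class moved with the settings. At the 25% mitochondrial limit 1169 of 12243 monocyte genes were called, against 101 of 12112 here. Their core level was 12296 and 10370 CPM under BPTES and 18973 and 20067 CPM under DMSO. The class joins an Fn1-led cluster, at 18576 and 14874 against 23389 and 27243 core CPM, and an Adgre4-led cluster, at 2507 and 1881 against 3043 and 1846 core CPM, where the groups overlapped. The Adgre4-led cluster held 245 and 193 cells under BPTES and 184 and 87 under DMSO, and the Fn1-led cluster 199 and 197 against 296 and 93. Neutrophils gave log2 changes of 0.63 to 1.94, and without a cluster that also carried Ace the 6 members tested were at -0.95 to -1.72. In neither fit did edgeR call any gene (0% of 9624 and of 7615 genes, with 989 and 472 at an unadjusted p under 0.05), and DESeq2, run on all neutrophils, called 0.748% of genes and no member.

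T cells, used as a class that should lack these genes, showed the same direction as proximal tubule. Of the 10 members 4 were called lower (background 0.246%): Cd74 at 119 and 102 against 185 and 226 CPM (log2 -0.89 ± 0.11, adjusted p = 0.0403 by edgeR), H2-Aa (-0.72), H2-Ab1 (-0.66) and H2-Eb1 (-0.76). The H2-Ab1 call was lost with RLE scaling, the replicate block, the 25% mitochondrial limit, resolution 2 and the members used in clustering. H2-Eb1 was lost with RLE scaling too, and H2-Aa at resolution 2. Leaving out the second BPTES library or keeping doublets ended all 4 calls, and leaving out the first ended those of Cd74 and H2-Eb1. Of all genes, fewer were called without the second BPTES library and more without the first. With the second library left out and with doublets kept, Cd74 was still at -0.81 and -0.89 and H2-Aa at -0.61 and -0.68. C1qa was at 9.98 and 11.6 CPM under BPTES and 21.6 and 33.2 CPM under DMSO in the same cells and was not called (adjusted p = 0.0899 by edgeR). In innate lymphoid cells H2-Ab1 was called (38.8 and 37.0 against 82.0 and 123 CPM, log2 -1.44 ± 0.22, adjusted p = 0.0172 by edgeR, background 0.228% lower), on 51 to 101 UMIs per library. With doublets kept its log2 change was -0.38 and it was not called (adjusted p = 0.451 by edgeR).

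A class-by-treatment interaction term, with each library as a blocking factor, tested whether the changes differed between classes. The change in macrophages exceeded that in proximal tubule for 4 members (background 0.736% in that direction): Ciita by 1.46 ± 0.15 on the log2 scale (adjusted p = 0.00159 by edgeR), H2-Ab1 by 0.90 ± 0.16 (0.0169), Cd74 by 0.85 ± 0.17 (0.0276) and H2-DMa by 0.82 ± 0.14 (0.0167). The Ciita call held in each of the 4 fits that left out 1 library (1.37 to 1.56). The other 3 calls were lost without the second BPTES library, in a fit where far fewer of all genes were called. Cd74 and H2-DMa were not called without the first BPTES library either (0.0586 and 0.0637), nor Cd74 without the second DMSO library (0.0931). The change in proximal tubule lay below that in endothelium for H2-Ab1 (-0.996 ± 0.15, adjusted p = 0.00699 by edgeR), Cd74 (-0.87 ± 0.17, 0.0420) and H2-DMa (-1.13 ± 0.23, 0.0383), beside a background of 0.341%; H2-DMa was not called without the first BPTES library (adjusted p = 0.146 by edgeR). Against T cells the proximal tubule change showed no called difference (background 0.156%), with core differences of -0.18 to 0.11 and SE of 0.12 to 0.13. The comparisons of proximal tubule with endothelium and with T cells were added after seeing the data. Macrophages exceeded dendritic cells for Cd74 (0.22 ± 0.04, adjusted p = 0.0456 by edgeR) and H2-Ab1 (0.21 ± 0.04, 0.0496), beside a background of 0.391%. Neither held without one or the other BPTES library, in fits where far fewer of all genes were called. The dendritic cell side of this term is the joint class.

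The wider pathway was read from lists of regulators, endosomal processing genes, class I genes and costimulatory genes. Of 16 regulators, which include the RFX and NF-Y subunits that bind the X and Y boxes and the chains of the interferon-γ receptor, none was called in proximal tubule, endothelium, macrophages or B cells. In T cells 1 of the 16, Irf4, was called lower (log2 -0.99 ± 0.10, adjusted p = 0.0153 by edgeR, background 0.246% lower). In dendritic cells Jak2, a kinase of the interferon-γ receptor, was called lower in the joint class (log2 -0.39 ± 0.08, adjusted p = 0.0420 by edgeR), but none of the 16 was called within type 1 or within type 2 cells, where Jak2 was at -0.28 ± 0.11 and -0.37 ± 0.09 (adjusted p = 0.339 and 0.0832). None of the 12 class I genes was called in those classes, but in the proximal tubule cells with none of the 7 leukocyte genes the immunoproteasome subunit Psmb8 was lower (log2 -0.74 ± 0.18, adjusted p = 0.0495 by edgeR). The regulators' median log2 change in proximal tubule was -0.03. In the leukocyte sum without plasma cells, 1 regulator and 1 class I gene were called lower (background 4.2% lower).

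Processing genes were called in macrophages and dendritic cells, where no core gene was. In macrophages 3 of 9 were called lower and none higher (background 1.3% lower): the lysosomal proteases Ctsd (log2 -0.86 ± 0.11), Ctsb (-0.77 ± 0.13) and Lgmn (-0.64 ± 0.11), with adjusted p of 0.0244, 0.0456 and 0.0421 by edgeR. In the joint dendritic cell class, with the background of 2.5% lower given above, 3 were lower and 1 higher, the lower ones being Ctsd (-1.27 ± 0.15), Ctsb (-0.66 ± 0.11) and Lamp1 (-0.65 ± 0.08). Within type 2 cells none of the 9 was called, with these 3 at -1.27 ± 0.21, -0.71 ± 0.13 and -0.58 ± 0.11 (adjusted p = 0.0702, 0.0579 and 0.0511 by edgeR), nor within type 1 cells, with these 3 at 0.05, -0.05 and -0.18. In proximal tubule, endothelium and B cells none of the 9 was called, but in the proximal tubule cells with none of the 7 leukocyte genes Ctss, the protease that degrades the invariant chain, was (log2 -0.57 ± 0.13, adjusted p = 0.0437 by edgeR). Of 8 costimulatory genes, 4 were lower in the joint dendritic cell class, 3 within type 2 cells (Tnfsf4, Cd274 and Pdcd1lg2) and none within type 1 cells. In the joint class Tnfsf4, which encodes OX40 ligand, changed by -2.44 ± 0.41 on 4 to 62 UMIs per library. Cd274 and Pdcd1lg2, the ligands of PD-1, changed there by -1.30 ± 0.08 and -1.25 ± 0.16. Within type 2 cells these 3 genes changed by -2.55 ± 0.42, -1.20 ± 0.08 and -1.20 ± 0.20. Cd40 was the 1 of 7 tested that was called in macrophages (-0.71 ± 0.09, adjusted p = 0.0244 by edgeR). H2-Eb2, a class II β gene next to H2-Eb1, was at 112 to 157 UMIs under BPTES and 474 to 541 under DMSO in the joint dendritic cell class (log2 -1.08 ± 0.13, adjusted p = 0.0153 by edgeR). Within type 2 cells it was at -0.97 ± 0.14 (adjusted p = 0.0311 by edgeR) and within type 1 cells at 0.64 ± 0.41 (0.543). Each call on a gene of these lists in macrophages and in the joint dendritic cell class was lost without the first BPTES library. Each was also lost without the second, Jak2 included. Far fewer of all genes were called in those fits too. Within type 2 cells Cd274 was called in each of the 4 fits that left out 1 library, Tnfsf4 and Pdcd1lg2 were lost without either BPTES library, and H2-Eb2 was lost without the second (adjusted p = 0.0587 by edgeR).

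Across the 14 classes with at least 50 cells in every library, the genes whose mean log2 level was most like that of the summed core genes were Cxcl9 (Pearson r = 0.981), Ccl7 (0.978), Gm20513 (0.977), Ly86 (0.974) and Mrc1 (0.973). For Ciita they were Gm20513 (0.981), Cxcl9 (0.977), Mtmr14 (0.969), Cd180 (0.966) and Mgl2 (0.964), the last a marker used to name type 2 dendritic cells. These correlations describe 14 classes of the same 4 libraries and carry no test. Gm20513 is annotated antisense to H2-Eb1 and overlaps it, so its counts cannot be told apart from reads of H2-Eb1 unless the counting used the strand, which is not given in the sources used here. H2-Oa and H2-DMa also overlap annotated genes on the other strand.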

How the data were processed

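Raw UMI counts per gene and barcode were deposited by the authors as matrices. Per the submitters' processing notes these came from Cell Ranger 8.0.1 and build mm10; annotation, cell calling and strand use are not given in the sources used here. The features and barcodes tables, deposited beside the counts, hold names only. Barcodes with at least 500 UMIs, 300 genes and at most 50% mitochondrial UMIs were kept. Doublets were scored with Scrublet in scanpy 1.11.5 and removed at 0.4% per 1000 barcodes. Leiden clustering (3000 variable genes without the 10 members, 40 components, 15 neighbours, resolution 1) was named from lists of 155 markers of 24 cell types. A cluster stayed unnamed if fewer than 3 of its markers were detected in 20% of cells, if its 10 leading genes held more markers of a different type, or if it was shallow or led by cell-cycle genes with no own marker among them; dendritic cell lists, and the 2 proximal tubule lists, counted as 1 family. The members, lists and naming rules were chosen with earlier results of these data known.

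Raw counts were summed per library and class. Testing was limited to classes of 50 or more cells in all 4 libraries and used edgeR 4.0.16 (quasi-likelihood, robust, TMM, filterByExpr, R 4.3.3; Benjamini-Hochberg within a class), BPTES over DMSO, log2 scale, with SE from the F statistic. With 2 libraries against 2, an exact permutation test cannot go below p = 0.333, so none is given. On simulated data for proximal tubule (15964 genes) 68.7% of genes changed 2-fold and 98.0% of genes changed 4-fold were recovered. These were 68 and 96 genes, beside 20 false calls. In T cells 72 and 94 were recovered beside 26 false calls, and in endothelium 76 and 95 beside 29. In macrophages 67 and 85 were recovered beside 22 false calls, and in all leukocytes 60 and 85 beside 38. In each simulated class the false share of calls thus exceeded the threshold on adjusted p. Calls close to that threshold are therefore less certain than it implies. CPM in the text is without TMM. Intervals and the limit of 3 counts cover counting error only. In all comparisons the 10 members were named, together with at most the 3 most changed called genes of each pathway list, and the 5 genes most alike by correlation of log2(CPM + 1); C1qa, C1qb, C1qc, Ptprc and Plac8 were named after their values were seen. Alternatives were DESeq2 1.42.0, RLE scaling, no filter, the replicate number as a block, each library left out, a 25% mitochondrial limit, doublets kept, resolution 2, members used in clustering, no plasma cells, and cells without leukocyte UMIs. Crossed pairing, mixed clusters left out and 2 interactions (proximal tubule against endothelium and against T cells) were added after seeing the data.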

Additional observations from a re-analysis of the deposited data

Results flagged for a closer look

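In the interaction test, 9 differences between classes in the change under BPTES passed the threshold (log2 scale, edgeR). Of all genes, 0.736% passed in the same direction for macrophages against proximal tubule. The shares were 0.341% for proximal tubule against endothelium and 0.391% for macrophages against dendritic cells. Several of the 9 calls were lost with 1 library left out, as given above. Against proximal tubule, the change in macrophages was higher by 1.46 for Ciita, 0.90 for H2-Ab1, 0.85 for Cd74 and 0.82 for H2-DMa. Against endothelium, the change in proximal tubule was lower, at -1.13 for H2-DMa, -0.996 for H2-Ab1 and -0.87 for Cd74. That comparison, unlike the other pairs given here, was added after seeing the data. Against dendritic cells, the change in macrophages was higher by 0.22 for Cd74 and 0.21 for H2-Ab1. The classes of a pair come from the same 4 libraries, and 3 of 28 leukocyte genes (C1qa, C1qb and C1qc) were also called lower under BPTES in proximal tubule; their part in these differences was not tested.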

How the results depend on the processing

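The number of all genes called moved with the settings. In all tubule cells it was 0 of 17416, against 402 with the crossed pairing and 646 with DESeq2. In leukocytes it was 1303 of 17082, against 228 with the replicate block and 262 with the crossed pairing. In proximal tubule it was 92 of 15964, against 2225 with the replicate block and 11 of 16529 with doublets kept. Counts of members are therefore not read as results about the members alone. The number of members called depended on the settings too, and the cause was not tested. In all tubule cells (0 called) it was 4 without the count filter (49 of 24625 genes called), 6 with the crossed pairing and 7 with DESeq2. It was 4 in tubule cells with no leukocyte UMI (56 of 15712 genes). In leukocytes (8) it was 0 with the replicate number as a block, 2 with the crossed pairing and 4 with doublets kept (990 of 17620 genes). In proximal tubule (5) it was 0 with doublets kept. Ciita was called there with the replicate block, the crossed pairing (1046 of 15964 genes), DESeq2 (876) and no filter (1995 of 23643). In endothelium (0) it was 1 without the filter (605 of 20582 genes). In macrophages (0) it was 3 without the filter (1961 of 21507 genes). It was 1 each with the crossed pairing (479 of 13804), DESeq2 (514) and doublets kept (1055 of 15009). In dendritic cells (1) it was 2 without the filter (1407 of 20936 genes), 0 with the crossed pairing (66 of 13297) and 2 at resolution 2 (784 of 13334). In T cells (4) it was 2 with RLE scaling (41 of 13010 genes), 0 with doublets kept (24 of 12805) and 2 at resolution 2 (19 of 12615). In the other classes together (1) it was 2 with RLE scaling, 23 without the filter, 8 with the replicate block, 11 with the crossed pairing, 8 with DESeq2, 9 at 25% mitochondrial UMIs, 3 at resolution 2 and 1 to 22 with 1 library left out. With 1 library left out, the log2 change of Cd74 was -1.21 to -0.85 in all tubule cells and -0.40 to -0.32 in leukocytes. It was -1.03 to -0.73 in T cells. Its interaction was 0.19 to 0.26 for macrophages minus dendritic cells and 0.77 to 0.97 for macrophages minus proximal tubule. Calls on members and over all genes moved in these fits too.

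Changes near 0 turned sign. In endothelium H2-Eb1 was 0.0416 at 25% mitochondrial UMIs, 0.35 with doublets kept, 0.0361 at resolution 2, 0.0548 with the members used in clustering, 0.0394 in cells with no leukocyte UMI, and -0.391 to 0.0421 with 1 library left out. Endothelial Ciita was 0.21, 0.37, 0.13, 0.17 and 0.0396 under those settings and -0.63 to 0.33 with 1 library left out. With 1 library left out, endothelial H2-Aa ranged from -0.10 to 0.16, H2-Ab1 from -0.0009 to 0.32 and Cd74 from -0.0742 to 0.28, and macrophage H2-Eb1 from -0.016 to 0.058 (-0.0008 with doublets kept). Ciita in dendritic cells was -0.0348 with the members used in clustering, and H2-DMb2 in type 2 dendritic cells was 0.05 at resolution 2, where that name covers fewer cells. Replicate numbers are not said to pair libraries. Per gene, the log2 difference between library 1 and library 2 was taken within BPTES and within DMSO. Across genes these 2 differences correlated at 0.137 in proximal tubule and 0.0188 in leukocytes. A lone library left in a group was assumed to vary like the others.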
